A study of Rattus norvegicus with 12 samples.

Results

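The genes described here encode integrin chains and the focal adhesion proteins that tie them to actin, measured in cultured heart cells with and without the plasticizer DEHP, di(2-ethylhexyl) phthalate. A named list of 35 genes was matched to probe sets whose platform annotation gives exactly 1 gene symbol. Of these, 28 were measured, each by 1 probe set, out of 14324 genes that some probe set names alone and 27342 probe sets in all. They comprise 12 of 17 integrin chains and 16 of 18 adaptor, actin-linking and signalling proteins. Itga3, Itga8, Itgav, Itga9, Itgb3, Tln2 and Lims1 were not analysed here because no probe set carried their symbol alone.

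The cells were heart cell monolayers from Sprague-Dawley rat pups aged 2 days, all from 1 litter, plated on laminated coverslips, as the labels put it, and grown for 3 days. For 3 more days 6 cultures received 50 µg/mL DEHP in 0.1% DMSO and 6 control cultures received 0.1% DMSO alone. The labels call the cultures of a group biological replicates, so the p-values below rest on culture-to-culture spread within that litter. The study asked how a DEHP exposure that its submitters relate to clinical use alters gene expression in cardiomyocytes. Each value is a log2 ratio to the median of the same probe set over the 12 arrays, so 0 is the middle of the 12 and neither the level of a gene nor its brightness over background is held. The labelled cell type therefore cannot be checked by the level of its markers. In such bulk RNA, fewer cells of a type and less RNA per cell cannot be told apart.

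Integrins are surface receptors made of 1 alpha and 1 beta chain, which bind matrix proteins outside the cell. Inside, talin and kindlin bind the tail of the beta chain and switch the receptor on, and vinculin, alpha-actinin, tensin and the ILK-PINCH-parvin complex join it to actin. Focal adhesion kinase, Src, paxillin and p130Cas carry signals from the site. In heart muscle these proteins gather at costameres, which anchor the outer sarcomeres to the membrane and matrix.

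Array quality was judged over all probe sets. The SD of log2 ratios was 0.37 in control replicate 5 and 0.27 in DEHP replicate 6. The remaining 10 arrays had SDs of 0.15 to 0.19. Of the 28 members, 15 had their lowest control value in control replicate 5 and 16 had their lowest DEHP value in DEHP replicate 6. The 19 members that passed the test described next also passed without both arrays, in the same direction, and values without them are given for some members below.

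Under DEHP the RNA of most of the adaptor proteins was lower, and that of the integrin chains held more falls than rises. Of the 16 adaptors, 11 fell, 0 rose and 5 did not pass limma's test at an adjusted p under 0.05. Of the 12 integrin chains, 6 fell, 2 rose and 4 did not pass. Over all probe sets 7.82% fell and 10.5% rose by the same test. All members come from the 15097 probe sets with 1 gene symbol. Tested alone, 1612 of these fell and 2310 rose, larger shares than over all probe sets. With 12 chains, 2 rises are not far from that 10.5%, and against a minimum fold of 1.2 there were 0. All 16 adaptors had a log2 fold below 0, as 59.1% of all probe sets did. The adaptors ranged from −0.996 to −0.06 with a median log2 fold of −0.32, and the integrin chains ranged from −1.54 to 0.55 with a median of −0.23, against −0.02 over all probe sets. The difference between the integrin chains and the adaptors was not tested. Without control replicate 5 and DEHP replicate 6 the counts were 6 lower and 2 higher among the integrin chains and 13 lower and 0 higher among the adaptors, with medians of −0.27 and −0.34.

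**Figure D1:**
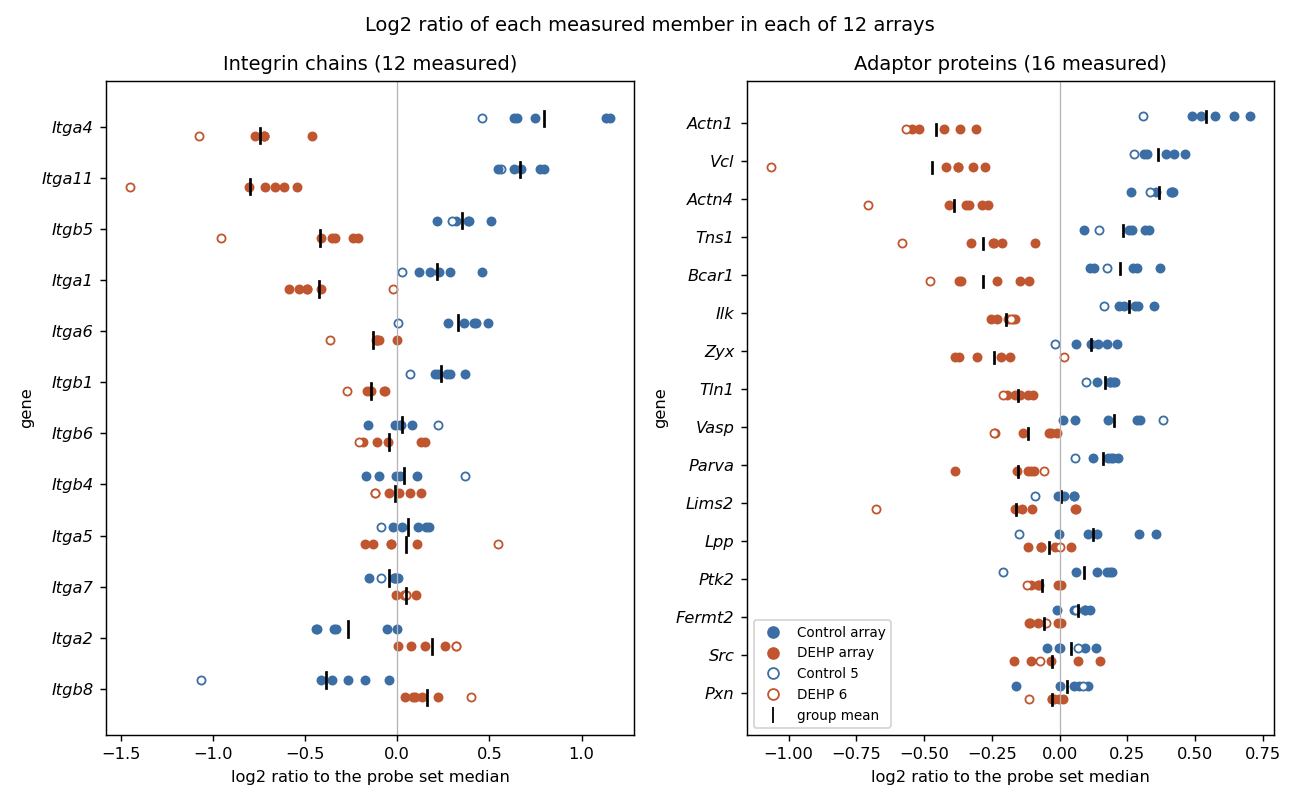
Log2 ratio to the probe set median (x axis) of each measured member (y axis) in each of the 12 arrays, with integrin chains on the left and adaptor proteins on the right. Filled points are arrays, open points are control replicate 5 and DEHP replicate 6, and black bars are group means of 6 arrays. Itga4 and Itga11 show the widest gaps, and DEHP replicate 6 is the lowest DEHP array in 16 of the 28 members.

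Stretches before the start sites are shown for the 2 integrin chains and the 2 adaptors that fell most among the 19 measured members with a promoter in the RefSeq table (build GRCr8), each as the 250 bases before the annotated start, 5′ to 3′ on the gene's strand. Capitals mark GGGCGG, the core bound by SP1, and CATTCC, the core bound by TEAD factors, on either strand.
Itga4, chr3:84569765-84570014, plus strand: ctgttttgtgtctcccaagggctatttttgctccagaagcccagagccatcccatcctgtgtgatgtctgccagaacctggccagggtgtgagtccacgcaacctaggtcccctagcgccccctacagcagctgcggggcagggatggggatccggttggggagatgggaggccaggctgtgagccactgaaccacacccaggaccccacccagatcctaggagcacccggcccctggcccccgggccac
Itga11, chr8:72041182-72041431, plus strand: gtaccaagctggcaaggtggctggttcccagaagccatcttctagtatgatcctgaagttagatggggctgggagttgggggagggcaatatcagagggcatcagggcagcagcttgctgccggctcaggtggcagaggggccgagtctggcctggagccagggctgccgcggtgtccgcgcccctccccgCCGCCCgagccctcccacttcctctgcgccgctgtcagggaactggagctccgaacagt
Actn1, chr6:104826173-104826422, minus strand: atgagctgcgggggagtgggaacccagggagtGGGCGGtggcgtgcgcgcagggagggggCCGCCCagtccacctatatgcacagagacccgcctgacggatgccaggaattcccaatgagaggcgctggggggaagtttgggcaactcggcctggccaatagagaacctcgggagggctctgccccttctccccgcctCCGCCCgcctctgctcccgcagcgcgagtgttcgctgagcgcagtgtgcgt
Vcl, chr15:3404801-3405050, minus strand: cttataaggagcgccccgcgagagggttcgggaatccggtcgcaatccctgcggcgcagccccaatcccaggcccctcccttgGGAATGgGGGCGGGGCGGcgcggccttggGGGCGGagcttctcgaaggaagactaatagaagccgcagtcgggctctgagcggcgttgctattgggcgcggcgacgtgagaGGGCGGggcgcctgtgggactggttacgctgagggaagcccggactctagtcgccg
The letters GGGCGG or their complement occurred in 10 of the 19 members and in 33.5% of 27457 genes with such a window. CATTCC occurred in 5 of the 19, namely Zyx, Itgb8, Vcl, Lims2 and Itgb1, and in 12.9% of all genes. The CArG box, bound by serum response factor, occurred whole in Itgb6 alone and in 1.62% of all genes. The Vcl window opens with all but the first base of such a box, and a box crossing a window edge could not be matched. Only whole boxes were counted, so this partial one has no share over all genes beside it. Neither TGANTCA, the AP-1 site, nor the direct repeat bound by PPAR-RXR pairs, 2 copies of AGGTCA with 1 base between, occurred in the 19, against 6.99% and 0.0583% of all genes. Genes with more than 1 window counted as holding a motif when any window did. These matches describe the letters of the windows and are not evidence of binding.

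Among the alpha chains, 4 of 7 fell and 1 rose. Itga4, whose chain pairs with beta 1 to bind fibronectin and VCAM-1, had control log2 ratios from 0.46 to 1.15 with a median of 0.70, and DEHP values from −1.08 to −0.46 with a median of −0.72. Every DEHP array was below every control array. The gene was 2.91-fold lower (log2 fold −1.54 ± 0.13, SE, n = 6 per group, limma adjusted p = 2.82e-06), and the log2 fold was −1.54 also without both arrays that stood apart.

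The collagen receptors split. Itga11, a fibrillar collagen receptor chain best known from fibroblasts, had control values from 0.55 to 0.80 with a median of 0.65, and DEHP values from −1.45 to −0.55 with a median of −0.69. Its groups did not overlap, and the lowest value was that of DEHP replicate 6. The gene was 2.76-fold lower (log2 fold −1.46 ± 0.13, limma adjusted p = 4.38e-06), with a log2 fold of −1.35 without both arrays. Itga1, another collagen receptor chain, had controls from 0.025 to 0.46 with a median of 0.20, and DEHP values from −0.59 to −0.025 with a median of −0.49. Here DEHP replicate 6 was the highest DEHP array and alone made the gap between the groups narrow, though they still did not overlap. The other DEHP arrays ended at −0.41. Itga1 was 1.56-fold lower (log2 fold −0.64 ± 0.10, limma adjusted p = 0.00038) and −0.76 on the log2 scale without both arrays. Itga2, the collagen receptor chain of platelets and epithelia, moved the other way. Its control values ran from −0.44 to −0.003 with a median of −0.34 and its DEHP values from 0.003 to 0.32 with a median of 0.21, so the groups met near 0 without overlapping. Itga2 was 1.37-fold higher (log2 fold 0.46 ± 0.09, limma adjusted p = 0.00265).

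Of the laminin receptor chains, Itga6 fell and Itga7 did not pass. Itga6 had control values from 0.003 to 0.49 with a median of 0.39, and DEHP values from −0.37 to −0.003 with a median of −0.11. The groups met at control replicate 5, the lowest control, and did not overlap. Itga6 was 1.38-fold lower (log2 fold −0.46 ± 0.08, limma adjusted p = 0.00137). Itga7, the main laminin receptor chain of mature striated muscle, had a log2 fold of 0.09 with a 95% interval from 0.01 to 0.17 (limma adjusted p = 0.11). Its highest control was 0.006, and 5 of the 6 DEHP arrays lay above it.

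Itga5, which with beta 1 forms the classic fibronectin receptor, had a log2 fold of −0.01 with a 95% interval from −0.24 to 0.22. Its DEHP arrays spread from −0.17 to 0.55, the last in DEHP replicate 6, around controls from −0.09 to 0.17. Without both arrays that stood apart its log2 fold was −0.14 (limma adjusted p = 0.12).

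Among the beta chains 2 of 5 fell and 1 rose. Itgb1, the shared partner of most alpha chains above, had controls from 0.07 to 0.37 with a median of 0.25 and DEHP values from −0.27 to −0.07 with a median of −0.15. The groups did not overlap, with control replicate 5 lowest among the controls. Itgb1 was 1.30-fold lower (log2 fold −0.38 ± 0.05, limma adjusted p = 0.000192). Itgb5, whose chain pairs with alpha V to bind vitronectin, had controls from 0.21 to 0.51 with a median of 0.35 and DEHP values from −0.96 to −0.21 with a median of −0.34. DEHP replicate 6 lay far below the other DEHP arrays, and no DEHP array reached the controls. Itgb5 was 1.71-fold lower (log2 fold −0.77 ± 0.11, limma adjusted p = 0.000254), with −0.67 without both arrays.

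Itgb8, whose chain pairs with alpha V and releases active TGF beta from its latent form, was the other chain that rose. Controls ran from −1.07 in control replicate 5 to −0.04 with a median of −0.31, and DEHP arrays from 0.04 to 0.40 with a median of 0.11. Its groups did not overlap. It was 1.46-fold higher (log2 fold 0.55 ± 0.14, limma adjusted p = 0.0154), and the log2 fold was 0.37 ± 0.07 without both arrays. The chains best known from epithelia did not pass: Itgb4 had a log2 fold of −0.05 with a 95% interval from −0.23 to 0.13, and Itgb6 −0.07 with an interval from −0.24 to 0.10.

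**Figure D2:**
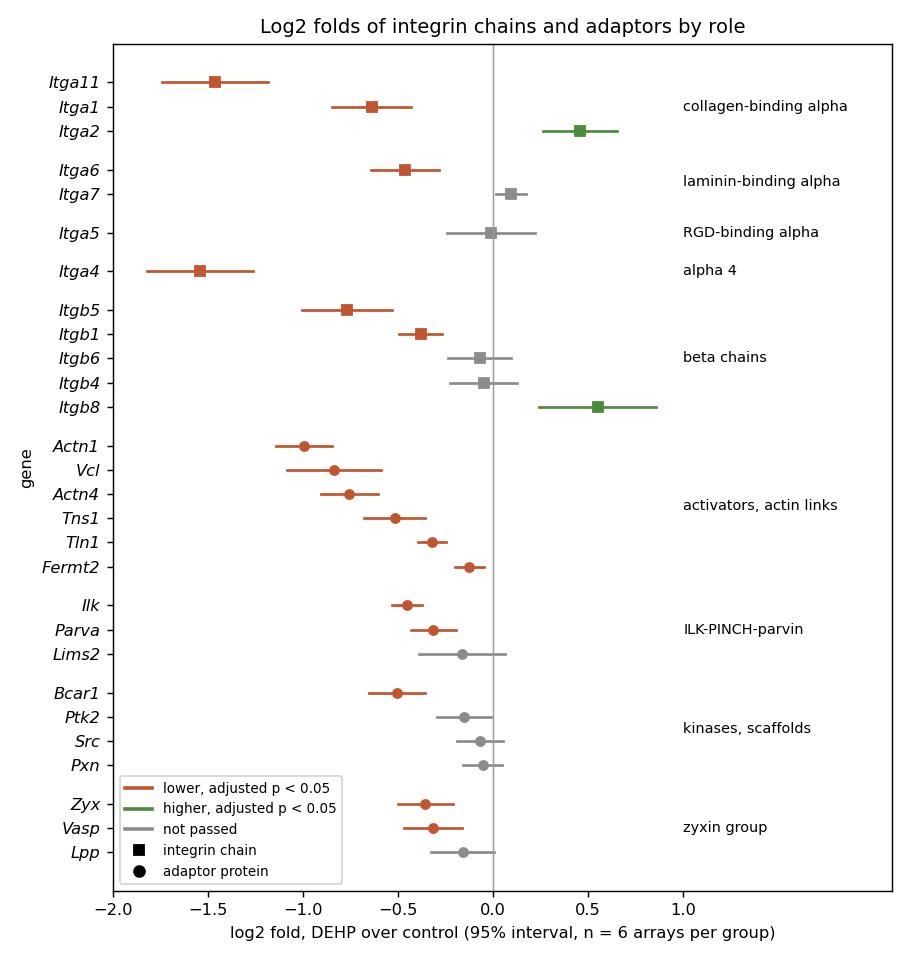
Log2 fold of DEHP over control (x axis) with its 95% interval from the limma fit for the 28 measured members (y axis), grouped by role, with n = 6 arrays per group. Squares are integrin chains and circles adaptor proteins. All 6 activators and actin links lie below 0, while Itga2 and Itgb8 lie above it.

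The 6 measured activators and actin links all fell, the most uniform of the adaptor classes by count. Actn1, the non-muscle alpha-actinin that bundles actin at adhesions, had controls from 0.31 to 0.70 with a median of 0.55 and DEHP values from −0.57 to −0.31 with a median of −0.47. No array of a group reached the other group. Actn1 was 1.99-fold lower (log2 fold −0.996 ± 0.068, limma adjusted p = 6.94e-07), and −1.02 on the log2 scale without both arrays. Actn4, the second non-muscle alpha-actinin, had controls from 0.26 to 0.42 with a median of 0.38 and DEHP values from −0.71 to −0.26 with a median of −0.34. Its lowest value was again that of DEHP replicate 6, with no overlap between groups. It was 1.69-fold lower (log2 fold −0.76 ± 0.07, limma adjusted p = 5.41e-06).

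Vcl encodes vinculin, which binds talin under tension and recruits actin. Its controls ran from 0.28 to 0.46 with a median of 0.36 and its DEHP arrays from −1.07 to −0.28 with a median of −0.37. DEHP replicate 6 was the outlying array, since the other DEHP arrays ended at −0.42. Vcl was 1.79-fold lower (log2 fold −0.84 ± 0.11, limma adjusted p = 0.000181), and without both arrays the log2 fold was −0.74 ± 0.04. Tln1, the ubiquitous talin, moved less but within narrow groups: controls lay between 0.10 and 0.20 with a median of 0.19, and DEHP arrays between −0.21 and −0.10 with a median of −0.16. The 2 groups of Tln1 did not overlap, and its log2 fold was −0.32 ± 0.03 (limma adjusted p = 1.8e-05). Tns1, tensin 1, fell by 0.52 ± 0.07 on the log2 scale with groups apart. Fermt2, the kindlin of muscle and mesenchyme, had the smallest fall that passed, at −0.13 ± 0.03 with overlapping groups (limma adjusted p = 0.0236). That call was lost in 6 of the 12 fits that left out 1 array.

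In the ILK-PINCH-parvin complex, Ilk and Parva fell. Ilk encodes integrin-linked kinase, the pseudokinase at the centre of the complex. Its controls ran from 0.16 to 0.35 with a median of 0.26 and its DEHP arrays from −0.25 to −0.16 with a median of −0.18. The DEHP arrays were tightly spaced and lay below all controls, DEHP replicate 6 included. Ilk had a log2 fold of −0.45 ± 0.04 (limma adjusted p = 2.15e-06). Parva, alpha-parvin, had a log2 fold of −0.31 ± 0.05 (limma adjusted p = 0.00115) with groups apart, and DEHP replicate 2 was its lowest array at −0.39. Lims2, PINCH-2, did not pass. Its log2 fold was −0.17 with a 95% interval from −0.39 to 0.06, and −0.08 without both arrays.

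Among the 4 signalling kinases and scaffolds, 1 fell. Bcar1 encodes p130Cas, a scaffold that Src phosphorylates when it is stretched. Its controls ran from 0.11 to 0.37 with a median of 0.22 and its DEHP arrays from −0.48 to −0.11 with a median of −0.30, with no overlap. The log2 fold was −0.51 ± 0.07 (limma adjusted p = 0.000174). Ptk2, focal adhesion kinase, had a log2 fold of −0.15 with a 95% interval from −0.29 to −0.01 and did not pass (limma adjusted p = 0.13). Its lowest array was a control, replicate 5 at −0.21, while the other controls lay from 0.06 to 0.19. Without that array it passed (log2 fold −0.21, limma adjusted p = 0.00127), and also without both arrays (−0.20, limma adjusted p = 0.00246). Src had a log2 fold of −0.07 with an interval from −0.19 to 0.05, and Pxn, paxillin, −0.06 with an interval from −0.16 to 0.05. Both stayed unpassed without both arrays, at adjusted limma p of 0.68 and 0.82.

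Of the zyxin group, whose proteins sit on actin near the adhesion, 2 of 3 fell. Zyx, zyxin, had a log2 fold of −0.36 ± 0.07 (limma adjusted p = 0.00208), and its groups overlapped through control replicate 5 at −0.015 and DEHP replicate 6 at 0.015. Vasp, which promotes actin filament growth, had a log2 fold of −0.32 ± 0.07 (limma adjusted p = 0.00612) with groups apart. Lpp, the lipoma preferred partner, did not pass at −0.16 with an interval from −0.33 to 0.002, and passed without control replicate 5 (−0.22, limma adjusted p = 0.0239) and without both arrays (−0.22, limma adjusted p = 0.028).

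In 15 of the 28 members every DEHP array lay below every control array, and in 2, Itga2 and Itgb8, every DEHP array lay above. Over all probe sets, which include 11922 without a gene symbol, these shares were 5.12% and 7.12%. In such a gene the median centring places the lowest value of the upper group and the highest value of the lower group at equal distances from 0. A fall of at least 1.5-fold that passed was seen in 4 of 12 integrin chains and 3 of 16 adaptors, against 2.15% of all probe sets. These were Itga4, Itga11, Itgb5 and Itga1, and Actn1, Vcl and Actn4.

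Other genes of the pathway were taken from 4 lists, and 76 of their 101 genes were measured. Of 32 further adhesion adaptors 22 were measured, of which 14 fell and 2 rose, with a median log2 fold of −0.43. Those with the smallest p were Flna (−0.94 ± 0.05), the actin crosslinker filamin A, Pdlim5 (−0.56 ± 0.04), Enah (−0.87 ± 0.06), a relative of VASP, and Tgfb1i1 (−0.84 ± 0.07), the paxillin relative Hic-5. Relatives of the members, chosen after their values were seen, included Nedd9 (−0.70 ± 0.07), a Cas family scaffold, Evl (−0.29 ± 0.06) of the VASP family, Rsu1 (−0.45 ± 0.06), which binds PINCH, and Itgb1bp2 (−1.12 ± 0.10), the muscle integrin-binding protein melusin. Parvb, beta-parvin, rose (0.33 ± 0.07, limma adjusted p = 0.00614) where Parva fell, and the groups of Parvb overlapped. The other rise of this list was Limd1 (0.22 ± 0.05, limma adjusted p = 0.0131), also with overlapping groups. Fermt1, Fermt3, Parvg, Lpxn, Sorbs3 and Itgb1bp1 did not pass, with log2 folds from −0.05 to 0.08.

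On the outside of the cell, 11 of 21 listed matrix ligands were measured, of which 6 fell and 1 rose, with a median of −0.23. The smallest p were those of Fbln5 (−1.28 ± 0.16), which binds elastin and integrins, Col1a1 (−0.39 ± 0.05), Fn1 (−0.27 ± 0.04), which encodes fibronectin, and Col1a2 (−0.41 ± 0.07). Of 30 signalling genes downstream of integrins 3 fell and 2 rose, with a median of 0.04. That share is near the 18.3% of all probe sets that passed in either direction. Of the 15097 probe sets with 1 gene symbol, tested alone, 3922 passed. Pak1 (−0.99 ± 0.08), a kinase activated by Rac and Cdc42, and Arhgef6 (−0.57 ± 0.08) fell, and Git1 (0.54 ± 0.07) and the Src family kinase gene Fyn (0.61 ± 0.11) rose. Rac1, Rhoa and Cdc42, GTPases that set actin organisation and were named after their values were seen, had log2 folds of −0.07, −0.15 and −0.05 and did not pass.

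In the list of other integrin chains and surface partners 2 of 13 fell and 4 rose, with a median of 0.04. Cd151, the tetraspanin partner of laminin-binding integrins, fell by 0.54 ± 0.04 on the log2 scale, and Plaur, the urokinase receptor, by 0.49 ± 0.07. Itgb2, the beta chain of leukocyte integrins, rose (0.62 ± 0.07), as did Cd47 (0.30 ± 0.05), an integrin-associated protein. Itgam, an alpha chain partner of Itgb2 chosen after its value was seen, also rose (0.53 ± 0.09). Leukocyte and macrophage markers beside them had 1 rise and 2 falls among 10, with array means from −0.18 to 0.21 in controls and −0.12 to 0.02 under DEHP. The part of such cells in these rises was not tested.

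**Figure D3:**
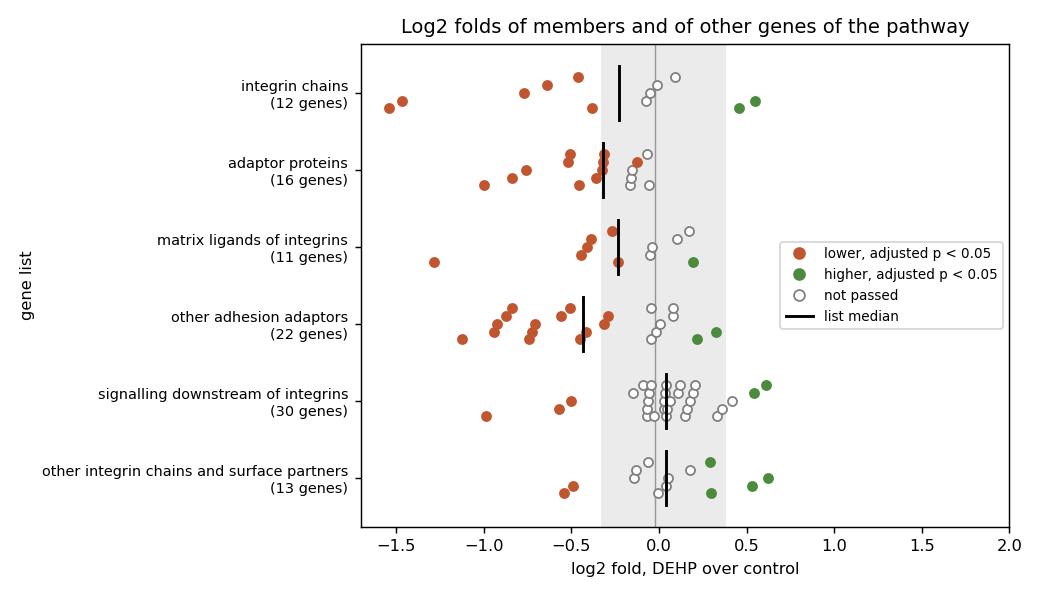
Log2 fold of DEHP over control (x axis) for each gene of the member and pathway lists (y axis). Filled points passed limma's test, black bars are list medians, the grey line is the median of all probe sets and the shaded band spans their 5th to 95th percentiles, from −0.32 to 0.38. The adaptor lists lie mostly left of the band's centre, while the downstream signalling list has its median at 0.04.

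Markers of other cell types moved in the same arrays. All 8 measured smooth muscle and myofibroblast markers fell, with array means from 0.64 to 0.81 in controls and from −1.22 to −0.62 under DEHP. Of 10 fibroblast markers 6 fell and 3 rose, with array means from 0.05 to 0.19 in controls and from −0.41 to −0.09 under DEHP. The 3 rises were Pdgfra (0.90 ± 0.07), Dcn (0.41 ± 0.05) and Lum (0.25 ± 0.06). The largest of the 6 falls were Mfap5 (−1.83 ± 0.09) and Thy1 (−1.25 ± 0.14), so the list mean does not describe each marker. Collagen genes Col1a1, Col1a2 and Col3a1 are in the fibroblast list and among the matrix ligands. Array means of the integrin chains ran from 0.03 to 0.26 in controls and from −0.26 to −0.15 under DEHP, and those of the adaptors from 0.11 to 0.22 and from −0.32 to −0.13. DEHP replicate 6 was lowest and control replicate 5 lowest of its group in all 4 of these lists. Without both arrays the integrin means ran from 0.11 to 0.26 in controls and from −0.20 to −0.15 under DEHP, and the adaptor means from 0.18 to 0.22 and from −0.19 to −0.13.

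Of 10 cardiomyocyte markers 4 fell and 2 rose, and their array means overlapped between groups, from −0.15 to 0.09 in controls and from −0.40 in DEHP replicate 6 to 0.19. Of 10 listed endothelial markers 6 were measured and 3 rose, with means from −0.33 to 0.03 in controls and −0.22 to 0.47 under DEHP. That overlap came from DEHP replicate 6, as the other DEHP arrays ran from 0.14 to 0.47, above every control. The measured epicardial and mesothelial markers rose in 5 of 5 cases, with means from −0.25 to −0.04 in controls and from 0.05 to 0.35 under DEHP. Of 3 measured Schwann cell markers 1 fell. Since the values hold no level, which markers are near background could not be read. The part of other cell types in the falls of the integrin chains and adaptors was not tested.

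**Figure D4:**
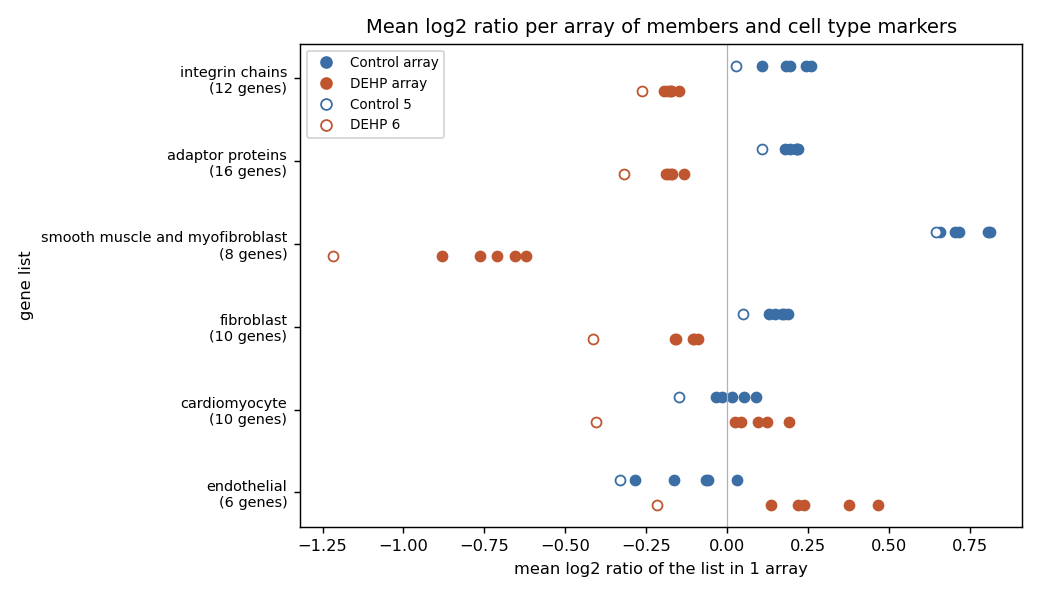
Mean log2 ratio over the genes of a list in 1 array (x axis) for the members and for 4 lists of cell type markers (y axis), with 6 control and 6 DEHP arrays. Open points are control replicate 5 and DEHP replicate 6. The groups lie apart for the integrin chains, the adaptors, the smooth muscle markers and the fibroblast markers. The groups overlap for cardiomyocyte markers, and for endothelial markers through DEHP replicate 6 alone. The fibroblast list held 6 falls and 3 rises.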

How the data were processed

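Total RNA of 12 cultures was hybridised to 12 Affymetrix arrays. The authors' deposited values are linear ratios, and the submitters' processing notes name RMA as a tool, with no version. For every probe set the median log2 ratio over the 12 arrays was within 0.0001 of 0, so the deposited ratios are relative to that median. The number of arrays limits the precision. The planned test assumed log2 values, so the log2 of each deposited ratio was taken, with no further normalization.

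Of 27342 probe sets, 15097 had 1 gene symbol, 323 several and 11922 none in the platform annotation. All 28 measured members matched the RefSeq table by Entrez identifier, with 0 symbols changed. No genome build is named for the arrays, so only the RefSeq windows carry coordinates.

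DEHP was compared with control by limma 3.58.1 in R 4.3.3 (lmFit, eBayes, two-sided, Benjamini-Hochberg over all probe sets, adjusted p under 0.05). On simulated arrays of 27342 probe sets with 200 changed, the test recovered 76% of those changed by 0.5 on the log2 scale and 96% of those changed by 1, with 5 false calls among 177. The simulated noise was normal and independent between arrays and probe sets, with no array standing apart. These recovery figures may therefore not hold for the real arrays. Members and lists were chosen with earlier results of these data known. Full values are given for the 6 integrin chains and the 6 adaptors with the smallest p, and, added after values were seen, for both rises. Of each pathway list the 4 genes with the smallest p are named. A gene with several probe sets, here Grb2 alone, took the lowest-numbered. Values of array lists are means over genes. The plan's filter on dim probe sets could not be run on ratios. Plots were drawn with matplotlib 3.10.9.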

Additional observations from a re-analysis of the deposited data

Results flagged for a closer look

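In 60 groups of 6 values, those of each member and of the 2 list means in each treatment group, 13 values lay farther from the rest of their group than Dixon's 95% limit allows. Chance flags about 1 in 20 groups. DEHP replicate 6 held 9 of the 13 and control replicate 5 held 3. The values of DEHP replicate 6 were −1.45 for Itga11 (other DEHP arrays −0.81 to −0.55), −0.37 for Itga6, −0.96 for Itgb5, −1.07 for Vcl, −0.71 for Actn4, −0.68 for Lims2 and −0.11 for Pxn, each the lowest of its group. Its value for Itga1, −0.025, was the highest of its group, against −0.59 to −0.41. Its mean over the adaptors was −0.32. Control replicate 5 was lowest for Itgb8 at −1.07, for Ptk2 at −0.21 and for the mean of the adaptors at 0.11. DEHP replicate 2 was lowest for Parva at −0.39, against −0.16 to −0.06 in the other DEHP arrays.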

How the results depend on the processing

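Over 22 alternatives, 12 of which left out 1 array, 582 of the members' log2 folds kept their direction and side of the threshold. Of the rest, 19 no longer passed, 7 newly passed and 8 changed sign. The stricter adjusted p, the minimum fold, robust eBayes and the replicate block left each log2 fold as it was. No sign could change there. The changes of sign were those of Itga5, which ranged from −0.112 to 0.0318 as single arrays were left out, and of Itgb4, at 0.0368 without both arrays that stood apart and from −0.0915 to 0.0153 as single arrays were left out. With 1 array left out the integrin chains gave 6 falls and 2 rises each time, the adaptors 10 to 13 falls and 0 rises, and the pathway lists 25 to 26 falls and 8 to 10 rises. Over all probe sets 4211 to 5556 passed, against 5016. Against a minimum fold of 1.2, 4 integrin chains passed, with 0 rises, 5 adaptors passed, all 5 lower, and 16 pathway genes passed, 14 lower and 2 higher, while over all probe sets 1182 passed, 640 lower and 542 higher. At an adjusted p under 0.01, 1 integrin chain rose, and over all probe sets 3238 passed, 1771 of them higher. With array weights 14 pathway genes rose and 7614 probe sets passed, 3423 lower. The correlation of deviations between arrays of the same replicate number was 0.34, 0.13, 0.35, 0.25, 0.77 and 0.07 for replicates 1 to 6, and 3 of 6 replicates correlated best with their own number. As 1 correlation was under 0.1 and the labels state no pairing, the numbers were not taken to pair the arrays. All 6 correlations were positive, so they do not show that arrays of the same number are unrelated. Without both arrays that stood apart 26 pathway genes fell and 10 rose. With the replicate number as a block 6541 probe sets passed, 8 integrin chains and 10 adaptors, and Fermt2 no longer passed. Quantile normalization, median centring and robust eBayes kept each count of the member and pathway lists within 1.5 times. So did the mean over probe sets and the use of probe sets with 1 symbol. Each measured member had 1 probe set, with 1 symbol, so these last 2 settings could act on it only through the test.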
